A study of Mus musculus with 7 samples.

Results

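The transcripts of calmodulin and of the protein kinases that calmodulin switches on were examined in pancreatic islets of mice in which Wnt4 was targeted for deletion in β-cells. The members were Calm3, Camk1g, Camk1d, Camk2b, Camk2d, Camk2g, Camk4, Camkk1 and Camkk2, 9 of the 22911 genes that could be named on the array. They were chosen by name, as genes whose RefSeq accession a probe carries, but with earlier results of these data known. The study had already listed Camk1g among calcium signalling genes reduced in islets of the Wnt4-targeted mice. The count of members called below is therefore not independent of that report. Every probe was kept, which gave 18 probes. Of these, 12 probes of 8 genes were bright enough to be tested and 6 were not.

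Islets came from 3 control mice, Wnt4 fl/fl without the Pdx1CreER transgene, and from 4 Wnt4βKO mice, Wnt4 fl/fl with it. All were crossed to C57BL/6J, and per the protocol both genotypes received tamoxifen at 4 to 5 weeks of age and were killed for islet collection at 7 weeks, and the study's methods call the mice male. The Cre is driven by the Pdx1 promoter, which in adult islets is active mainly in β-cells and in some δ-cells, and no group held the Cre without floxed alleles. The study left out 1 further control sample that failed its quality tests. The titles carry the code w11, whose meaning is not stated, and each array is taken as 1 animal. RNA was hybridised to 1-colour oligonucleotide arrays.

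Calmodulin is a small protein that binds calcium ions and then clasps its target enzymes. In β-cells glucose metabolism closes potassium channels, calcium enters through voltage-gated channels, and the calcium-bound calmodulin activates the kinases of this family. CaM kinase kinases (Camkk1, Camkk2) phosphorylate and activate CaM kinase I (Camk1g, Camk1d) and CaM kinase IV (Camk4), whereas CaM kinase II (Camk2b, Camk2d, Camk2g) activates itself within its ring of subunits and is known for its part in insulin secretion.

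The arrays showed 1 difference among the members at an unadjusted p under 0.05. Camk1g was lower in Wnt4βKO islets, at 74.0% of the control level, and it did not pass after adjustment over all probes. The other 11 tested probes did not pass either threshold. The log2 fold changes of the 12 probes ran from -0.44 to 0.14, with 6 above and 6 below 0. Their median absolute value was 0.068, against 0.093 over all 26151 tested probes. At an unadjusted limma p under 0.05, 1 of 12 member probes (8.33%) was called, and it was lower, where 6.96% of all tested probes were called, 3.63% lower and 3.33% higher, and at a Benjamini-Hochberg adjusted p under 0.05 none was, where 0.0153% of all were. The groups overlapped for all 12 probes, whereas they did not overlap for 7.24% of all tested probes, 3.7% lower and 3.54% higher. In whole islets, fewer cells of a type and less RNA per cell cannot be told apart.

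The arrays resembled each other, with Pearson's r between 0.962 and 0.984 across probes, and between 45.5% and 49.0% of non-control spots were well above background. All 7 arrays came from 1 slide and 1 scan and lay in 2 rows of the slide. Wnt4 itself checks the labels. Its probe (A_66_P139703) gave log2 signals of 11.56, 11.17 and 11.77 in control replicates 2, 3 and 4 and of 11.30, 10.80, 11.04 and 10.92 in Wnt4βKO replicates 1 to 4. The groups overlapped, with a log2 fold change of -0.49 ± 0.17 (SE) and a limma p of 0.0232 unadjusted and 0.651 adjusted. Whether this probe falls in the floxed exons is not known here, so it may check the labels only in part. The tissue was labelled islet and held acinar RNA too, as given below. All 10 β-cell markers, among them Ins1, Ins2 and Pdx1, were measured. Their mean log2 signal was between 11.40 and 11.46 in control and between 11.29 and 11.56 in Wnt4βKO arrays. Within that mean, Ins1 was higher in Wnt4βKO arrays (log2 fold change 0.29, unadjusted limma p 0.01995) and Glp1r lower (-0.47, 0.03005). Neither passed after adjustment. Slc2a2, the glucose transporter of mouse β-cells, which was checked beside that list, was lower in Wnt4βKO islets (log2 fold change -1.54 ± 0.10, SE; adjusted limma p 0.00877). Markers of acinar cells, the enzyme-making cells of the exocrine pancreas, were lower on average in Wnt4βKO islets. Their mean over 22 of 22 genes was between 13.50 and 13.63 in control and between 12.48 and 13.38 in Wnt4βKO arrays. For this mean every Wnt4βKO array lay below every control array. At an unadjusted limma p under 0.05, 7 of the 22 genes were lower, where 4.43% of 13666 genes with 1 probe each were. The log2 fold change was below 0 for 19 of the 22 genes and above 0 for 3. The difference of the acinar mean was -0.60, with a two-sided exact permutation p of 0.0571, the smallest that 3 against 4 arrays can give. After adjustment over 10 marker lists the exact permutation p was 0.286. Among the remaining lists the log2 differences were 0.37 for T cells, 0.30 for immune cells, -0.25 for duct, -0.18 for glia, -0.11 for mesenchyme, -0.056 for endothelium, 0.022 for α-cell markers and 0.059 for those shared by δ- and PP cells. Without Wnt4βKO replicate 4, the array highest in immune markers, the median log2 fold change of that list was 0.064, against 0.40 with it. The T cell gene Cd3g was well above background on 1 of 3 control and 3 of 4 Wnt4βKO arrays. It was thus bright enough for testing only through the group where it is higher. The immune gene H2-Aa was well above background on 1 of 3 control and 2 of 4 Wnt4βKO arrays. The list of δ- and PP cells was the only one of these 8 whose groups did not overlap. Among defining markers, the duct channel Cftr, the mesenchymal receptor Pdgfra, the immune genes Lyz2 and Cd79a, the T cell gene Cd8a and the glial genes Gfap and Cdh19 were too dim to be tested.

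The promoters are shown for the members on which the comparison turns: Camk1g, the member past the unadjusted threshold, Camkk1, the member with the next lowest p, and for contrast Camkk2 and Calm3. Each line holds the 250 bases before the gene's start in RefSeq (mouse GRCm38.p6), 5′ to 3′ on the strand of the gene, with CpG dinucleotides in capitals. The windows are chr1:193370283-193370532 on the minus strand for Camk1g, chr11:73018738-73018987 on the plus strand for Camkk1, chr5:122779411-122779660 on the minus strand for Camkk2 and chr7:16924033-16924282 on the minus strand for Calm3.
Camk1g: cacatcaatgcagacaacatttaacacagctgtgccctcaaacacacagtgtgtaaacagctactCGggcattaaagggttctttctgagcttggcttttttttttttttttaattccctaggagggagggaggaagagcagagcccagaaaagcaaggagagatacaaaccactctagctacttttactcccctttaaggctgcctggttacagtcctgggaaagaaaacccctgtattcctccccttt
Camkk1: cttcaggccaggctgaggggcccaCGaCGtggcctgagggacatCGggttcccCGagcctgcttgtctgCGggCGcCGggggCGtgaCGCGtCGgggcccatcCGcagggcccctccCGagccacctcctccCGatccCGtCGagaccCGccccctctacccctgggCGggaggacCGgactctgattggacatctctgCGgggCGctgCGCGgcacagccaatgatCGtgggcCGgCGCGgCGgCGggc
Camkk2: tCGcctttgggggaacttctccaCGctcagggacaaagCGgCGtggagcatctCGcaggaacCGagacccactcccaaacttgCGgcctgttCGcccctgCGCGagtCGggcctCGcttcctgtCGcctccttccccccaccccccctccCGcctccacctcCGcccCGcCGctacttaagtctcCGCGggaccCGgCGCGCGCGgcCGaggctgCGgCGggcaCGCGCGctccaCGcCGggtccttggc
Calm3: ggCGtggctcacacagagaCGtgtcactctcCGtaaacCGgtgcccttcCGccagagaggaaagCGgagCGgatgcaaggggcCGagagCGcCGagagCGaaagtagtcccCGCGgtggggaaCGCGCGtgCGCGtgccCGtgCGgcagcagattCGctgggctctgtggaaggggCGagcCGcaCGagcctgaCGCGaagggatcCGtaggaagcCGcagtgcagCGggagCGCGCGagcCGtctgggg

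The Camk1g window held 1 CpG and 44.8% G and C bases, and 18.8% of all 32851 promoter windows of this length held as few CpGs or fewer. The windows of Camkk1, Camkk2 and Calm3 held 29, 32 and 33 CpGs. The table gave windows for 7 members in all, of which Camk1d had 2, with 22 and 5 CpGs, Camk2b 1 with 44 and Camk2d 1 with 23. The median over all windows was 6. Searching both strands, the core TGACG of the cAMP response element, the site of the CaM kinase target CREB, was present in the windows of Camkk1 and Calm3, 2 of the 8 member windows, and in 17.8% of all windows. The full element TGACGTCA, which contains that core, was in none of the 8 and in 1.55% of all, the TCF/LEF core CTTTGAT in none and in 3.21% of all, and TATAAA in none and in 12.4% of all. These are matches of letters and not sites of binding.

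CaM kinase I was the class with the member past the unadjusted threshold. Camk1g encodes CaM kinase I gamma, a lipid-anchored form of the kinase. Its bright probe (A_55_P2020331) gave log2 signals of 8.58, 9.15 and 8.69 in control replicates 2, 3 and 4. In Wnt4βKO replicates 1, 2, 3 and 4 it gave 8.44, 8.22, 8.22 and 8.60. All 4 Wnt4βKO arrays lay below the control mean and 3 of them below the lowest control array, but Wnt4βKO replicate 4 lay above control replicate 2. The means were 8.81 ± 0.30 (SD, n = 3) and 8.37 ± 0.19 (SD, n = 4). Wnt4βKO minus control was -0.44 ± 0.16 (SE) on the log2 scale, with a 95% interval from -0.81 to -0.056, which as a share of the control level runs from 56.9% to 96.2%. The limma p was 0.0299 unadjusted and 0.670 adjusted over all probes, and the probe ranked 1154 of 26151 by p. Within the slide rows the difference was -0.36 in the first, which held 1 control array, and -0.45 in the second.

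The value of Camk1g leaned on control replicate 3, its highest array. Without that array the log2 fold change was -0.26, with an unadjusted limma p of 0.0943, and without any 1 of the other 6 arrays it lay between -0.55 and -0.39. The threshold was also missed without Wnt4βKO replicate 2 (unadjusted limma p 0.0706) and without Wnt4βKO replicate 3 (0.0715). With the acinar mean as a covariate the log2 fold change of Camk1g was -0.68, with an unadjusted limma p of 0.0171. That mean did not overlap between the genotypes, so in no fit with it can acinar level and genotype be cleanly told apart. The other Camk1g probe (A_66_P104481) stayed near background on all 7 arrays, none of them well above it, and gave no measurement of the gene.

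**Figure D1:**
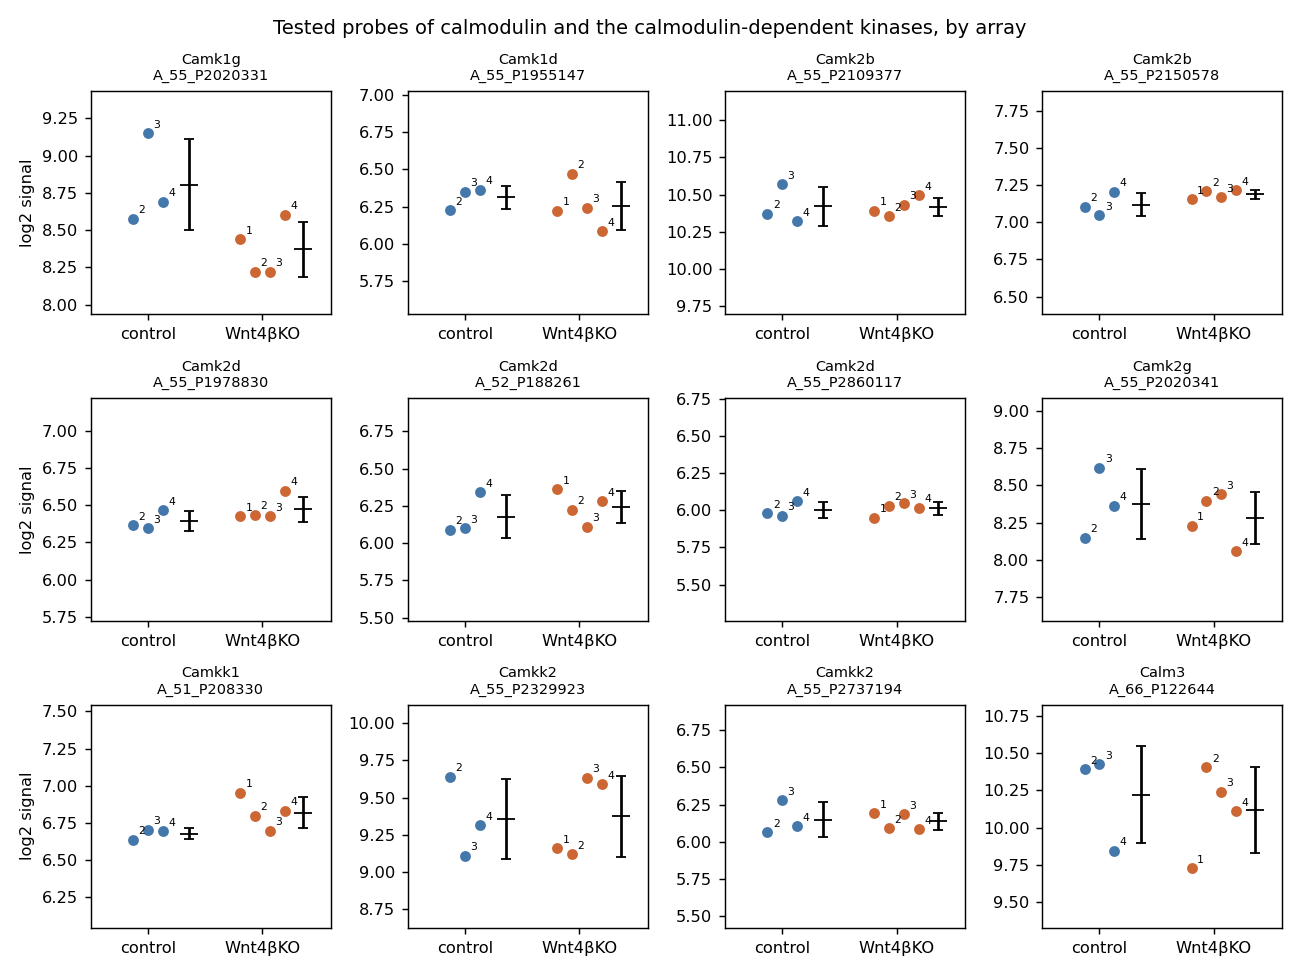
Log2 signal (y axis, each panel spanning the same width of 1.5) of the 12 tested probes in 3 control and 4 Wnt4βKO arrays. Points are arrays, numbered by replicate, and the bars are the mean ± SD of a group. Camk1g is the panel in which most Wnt4βKO arrays sit below the control arrays, and in every panel the groups overlap.

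Camk1d encodes CaM kinase I delta, a gene near a signal for type 2 diabetes in human populations. Its measurable probe (A_55_P1955147) gave log2 signals of 6.23, 6.35 and 6.36 in control and of 6.22, 6.47, 6.24 and 6.08 in Wnt4βKO replicates 1 to 4. The highest and the lowest values were both from Wnt4βKO arrays. For Camk1d the log2 fold change was -0.058 ± 0.10 (SE), and it had a 95% interval from -0.30 to 0.18 and an unadjusted limma p of 0.590. The probe is dim, and the offset of 50 that was added to every signal shrinks the differences of dim probes. With an offset of 0 the fold change was -0.19, and with the scanner's processed signal it was -0.47 (unadjusted limma p 0.229). With the acinar covariate it was 0.086. The other Camk1d probe (A_52_P131353) passed the background test on 0 of 7 arrays.

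The kinases that act upstream came next. Camkk1, which encodes CaM kinase kinase alpha, had 1 probe (A_51_P208330). It gave log2 signals of 6.64, 6.70 and 6.69 in control and of 6.95, 6.80, 6.70 and 6.83 in Wnt4βKO replicates 1 to 4. All 4 Wnt4βKO arrays lay above the control mean and 3 of 4 above the highest control array, with replicate 3 between the control values. At 0.14 ± 0.080 (SE), its log2 fold change was the highest among the 12 probes, with a 95% interval from -0.045 to 0.33 and an unadjusted limma p of 0.117. Slide row 1 gave 0.18 and slide row 2 gave 0.094, and the value was above 0 in all 19 alternatives tried, between 0.016, with the acinar covariate, and 0.28.

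Camkk2 encodes CaM kinase kinase beta, which also phosphorylates the energy sensor AMPK. Its brightest probe (A_55_P2329923) gave log2 signals of 9.64, 9.11 and 9.32 in control and of 9.16, 9.12, 9.63 and 9.59 in Wnt4βKO replicates 1 to 4. Both genotypes held arrays near the low and the high end. The log2 fold change was 0.020 ± 0.18 (SE), with a 95% interval from -0.40 to 0.44. Within the slide rows it was -0.18 and 0.24. A dimmer Camkk2 probe (A_55_P2737194) lay between 6.06 and 6.28 over the 7 arrays and differed by -0.011 ± 0.080 (SE), at an unadjusted limma p of 0.893. The third (A_55_P2125684) was well above background on 2 of 3 control arrays and on no Wnt4βKO array. Its measured means were 5.98 and 5.92, the groups overlapped, and no fold is given. It was not tested.

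CaM kinase II was measured through 3 genes. Camk2b, the beta subunit, had the most spots, with 10 repeats of 1 probe (A_55_P2109377) averaged on each array. That probe gave log2 signals of 10.37, 10.57 and 10.32 in control and of 10.39, 10.35, 10.43 and 10.50 in Wnt4βKO replicates 1 to 4. All 4 Wnt4βKO values lay inside the control range. The log2 fold change was -0.0035 ± 0.084 (SE), with a 95% interval from -0.20 to 0.19. The second Camk2b probe (A_55_P2150578) gave 7.10, 7.05 and 7.20 in control and 7.16, 7.21, 7.17 and 7.22 in Wnt4βKO replicates 1 to 4. Its log2 fold change was 0.069 ± 0.068 (SE), with an unadjusted limma p of 0.345, and its sign differed between the slide rows, at -0.022 and 0.12.

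Camk2d, the delta subunit, had 4 probes, of which 3 were tested. The brightest (A_55_P1978830) gave log2 signals of 6.36, 6.35 and 6.47 in control and of 6.42, 6.44, 6.43 and 6.60 in Wnt4βKO replicates 1 to 4. Replicate 4 alone lay above the control range. The log2 fold change was 0.078 ± 0.076 (SE), with an unadjusted limma p of 0.336. The log2 fold changes of the other tested probes were 0.067 ± 0.097 (SE) for A_52_P188261, with a control range from 6.09 to 6.34 and a Wnt4βKO range from 6.11 to 6.36, and 0.011 ± 0.066 (SE) for A_55_P2860117, with values between 5.95 and 6.06. Their unadjusted limma p were 0.513 and 0.866. All 3 were above 0 in the second slide row, at 0.16, 0.10 and 0.062, and below 0 in the first, at -0.037, -0.050 and -0.069. The fourth, A_52_P169412, passed the background test on 0 of 7 arrays.

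Camk2g, the gamma subunit, had 1 probe (A_55_P2020341). It gave log2 signals of 8.15, 8.62 and 8.36 in control and of 8.23, 8.40, 8.44 and 8.06 in Wnt4βKO replicates 1 to 4. Only replicate 4 lay below the control range. Camk2g had a log2 fold change of -0.095 ± 0.14 (SE), a 95% interval from -0.42 to 0.23 and an unadjusted limma p of 0.517. Leaving out control replicate 3, its highest array, turned it to 0.026, and the acinar covariate to 0.058.

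Where a gene had several tested probes, their log2 fold changes could be set against each other on the same arrays. For the 4 pairs of a dimmer probe with the brightest of its gene, in Camk2b, Camk2d and Camkk2, the difference between them lay between -0.067 and 0.072 on the log2 scale. The two-sided exact permutation p was between 0.400 and 0.914, and 0.914 after adjustment over the 4 pairs, in a design whose smallest p is 0.0571. Averaging the tested probes of each gene gave log2 fold changes of 0.033 ± 0.066 (SE) for Camk2b, 0.052 ± 0.073 for Camk2d and 0.0045 ± 0.097 for Camkk2.

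Calm3 encodes calmodulin, the calcium sensor on which all these kinases depend. Its probe (A_66_P122644) gave log2 signals of 10.39, 10.43 and 9.85 in control and of 9.73, 10.41, 10.24 and 10.11 in Wnt4βKO replicates 1 to 4. The lowest array of each genotype, control replicate 4 and Wnt4βKO replicate 1, lay in the first slide row. The log2 fold change was -0.10 ± 0.20 (SE), the widest error among the 12 probes, with a 95% interval from -0.57 to 0.37 and an unadjusted limma p of 0.627. Slide row 1 gave 0.22 and slide row 2 gave -0.24, and with the acinar covariate it was 0.27 (unadjusted limma p 0.294). Calm2, which encodes calmodulin as well and is named here although it falls outside the rule for named genes, did not pass either, at -0.18 ± 0.14 (SE) on the log2 scale and an unadjusted limma p of 0.240.

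Camk4, known from neurons and T cells, was the member without a measurement in islets. One of its probes (A_55_P2097206) was well above background on control replicate 4 alone and on no Wnt4βKO array, and the other (A_66_P108791) on none. No fold is given for either. Of 6 T cell markers, 5 were bright enough to be tested.

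**Figure D2:**
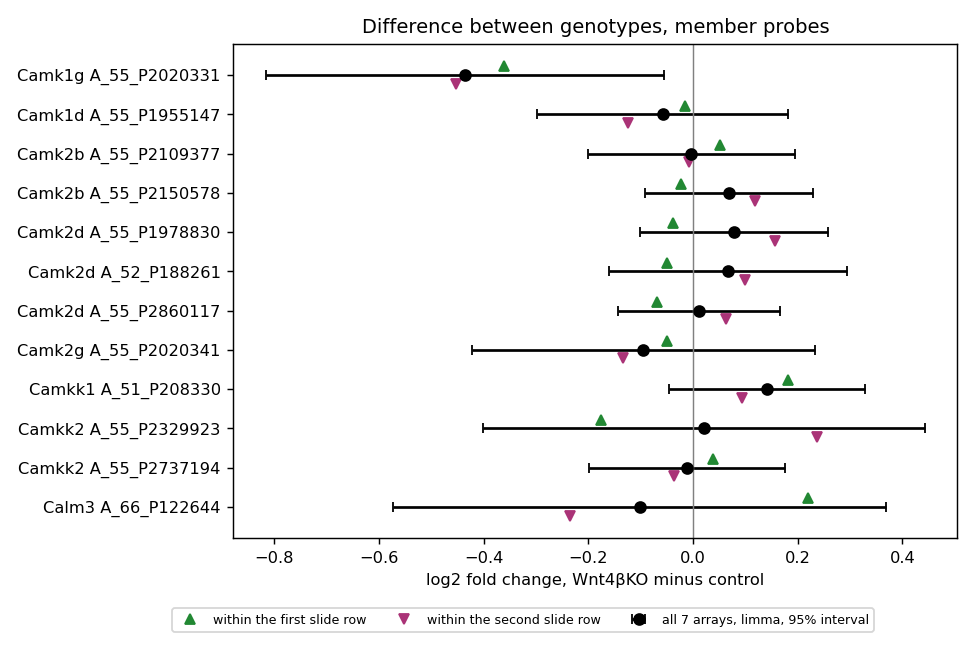
Log2 fold change (x axis, Wnt4βKO minus control) of the 12 tested member probes, with the 95% interval of the limma fit over 7 arrays, and the difference within each slide row as triangles. The interval of Camk1g, from -0.81 to -0.056, is the one that leaves out 0, and the sign differs between the slide rows for 8 probes.

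The genes whose pattern over the 7 arrays was most like that of Camk1g were found among 13666 genes with 1 tested probe each. Likeness was the root-mean-square difference between log2 signals after each probe was centred on its own mean, and Camk1g itself varied by 0.296 about its mean. The 5 nearest were Fkbp1b, at 0.0644, Sumo2, at 0.101, Mia3, at 0.106, Mcc, at 0.106, and Ranbp2, at 0.107. Fkbp1b gave 11.82, 12.46 and 11.93 in control and 11.74, 11.35, 11.54 and 11.81 in Wnt4βKO replicates 1 to 4. As with Camk1g, control replicate 3 was the highest array. These genes were picked for their pattern from so many, so that their differences are not tested here.

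The rest of the pathway was read through 79 other genes, of which 64 were tested, each by its brightest probe. At an unadjusted limma p under 0.05, 10 of the 64 (15.6%) were called, 7 higher and 3 lower in Wnt4βKO islets, where 8.94% of 13666 genes with 1 probe each were called, 4.51% higher and 4.43% lower, and the groups did not overlap for 7 (10.9%), where they did not for 8.36% of those genes. At an adjusted p under 0.05 none was called, where 0.022% of those genes were. The median log2 fold change was 0.0092, against 0.0075 over all genes. With the acinar covariate 4 of 64 were called (6.25%), where 2.80% of all genes were. Without 1 array at a time the count lay between 7 (10.9%), where 8.54% of all genes were called, and 12 (19%), where 9.14% were. Among genes well above background on all 7 arrays, 9 pathway genes were called (15.3%), where 8.71% of 11922 genes were. Neither Stk33 nor Dapk2 passes that filter. Dapk2, named here although it falls outside the rule for named genes, is 1 of the 7 without overlap. Its probe was well above background on 3 of 3 control arrays and on 1 of 4 Wnt4βKO arrays. It thus reached the 3 arrays needed for testing only through the control group, where it is high. Its lack of overlap is not a fair test.

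The relatives of the members came first. Of 13 other calmodulins, CaM kinases and related kinases, 8 were tested, of which 2 were higher at an unadjusted p under 0.05 and none lower, with a median of 0.023. Camk2a, the alpha subunit of CaM kinase II, and the kinase-like Camkv were among the 5 not tested. Dclk2, a doublecortin-like kinase, gave 7.01, 7.09 and 7.43 in control and 7.58, 7.61, 7.27 and 7.64 in Wnt4βKO replicates 1 to 4. Replicate 3 fell among the control arrays, and the log2 fold change was 0.35 ± 0.14 (SE), with a limma p of 0.0363 unadjusted and 0.682 adjusted. Stk33, a kinase of the CaM kinase group, was 0.31 ± 0.12 (SE) higher (limma p 0.0319 unadjusted, 0.670 adjusted). It was well above background on 1 of 3 control and 4 of 4 Wnt4βKO arrays. Stk33 thus reached the 3 arrays needed for testing only through the group where it is high, and its p is not a fair test. The probe is dim, and with an offset of 0 its log2 fold change was 1.12. With the acinar covariate Stk33 was 0.16 and Dclk2 0.24 (unadjusted limma p 0.355 and 0.289).

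Proteins that restrain CaM kinases or hold calmodulin were all measured, 8 of 8, with a median of 0.12. Of these, 2 were higher at an unadjusted p under 0.05 and none lower, and neither overlapped between the groups. Camk2n2, an inhibitor protein of CaM kinase II, gave 10.64, 10.61 and 10.57 in control and 11.16, 10.69, 10.95 and 11.12 in Wnt4βKO replicates 1 to 4. Its 4 Wnt4βKO arrays lay above all control arrays, replicate 2 by the least. Its difference of 0.37 ± 0.12 (SE) on the log2 scale had a limma p of 0.0166 unadjusted and 0.629 adjusted, and it was 0.11 with the acinar covariate (unadjusted p 0.402). Pcp4, a small protein that changes how calmodulin exchanges calcium, gave 6.98, 7.27 and 7.56 in control and 7.60, 8.04, 7.96 and 8.61 in Wnt4βKO replicates 1 to 4. It was 0.78 ± 0.24 (SE) higher (limma p 0.0134 unadjusted, 0.613 adjusted), by 0.26 in slide row 1 and 1.16 in slide row 2, and with the acinar covariate it was 0.81 (unadjusted limma p 0.0738).

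Calcineurin is the phosphatase that calmodulin activates, and it moves NFAT factors into the nucleus. Of 12 genes, 11 were tested, 1 was higher at an unadjusted p under 0.05 and the median was -0.047. Nfatc1 gave 6.73, 6.69 and 6.63 in control and 7.13, 7.02, 7.02 and 6.93 in Wnt4βKO replicates 1 to 4. The groups stood apart, with a log2 fold change of 0.34 ± 0.074 (SE) and a limma p adjusted over all probes of 0.494. With an offset of 0 Nfatc1 was 0.60. Among 15 transcription factors and co-regulators that CaM kinases act on, 14 were tested, none passed an unadjusted 0.05 and the median was 0.0073. The log2 fold changes farthest from 0 were 0.37 ± 0.26 (SE) for Crtc1, -0.35 ± 0.18 for Atf1 and 0.26 ± 0.17 for Mef2c, with 95% intervals that span 0, and Crtc1 was -0.049 with the acinar covariate. Without Wnt4βKO replicate 1, its highest array, Crtc1 was 0.13, and Mef2c was 0.39, past the unadjusted threshold (limma p 0.0177). Atf1 passed it at -0.48 without control replicate 3 (0.0377) and at -0.46 without Wnt4βKO replicate 2 (0.0316), and Mef2c was 0.16 without control replicate 2 and 0.17 without Wnt4βKO replicate 4. A dimmer Atf1 probe (A_55_P2159994) was -0.24 ± 0.079 (SE), with groups that did not overlap.

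Among 21 other enzymes, from families that calmodulin or CaM kinase kinases act on, 15 were tested, with a median of 0.064. At an unadjusted p under 0.05, 2 were higher and 2 lower. Pde1b, a calmodulin-dependent phosphodiesterase, was 0.37 ± 0.075 (SE) higher, and Phkg2, a catalytic subunit of phosphorylase kinase, 0.47 ± 0.13 (SE) higher, and for neither did the groups overlap. Their adjusted limma p were 0.494 and 0.557. With the acinar covariate Pde1b was 0.32 (unadjusted limma p 0.0302) and Phkg2 0.28 (0.140). The Pde1b probe is dim, and with an offset of 0 it was 0.90. Dapk3, a death-associated protein kinase that lacks the calmodulin-binding domain of its relatives, was -0.91 ± 0.29 (SE), with 7.75, 7.84 and 7.26 in control and 6.24, 6.80, 7.40 and 6.36 in Wnt4βKO replicates 1 to 4, where replicate 3 lay above control replicate 4. It was -0.33 with the acinar covariate (unadjusted limma p 0.342), and it missed the unadjusted threshold without control replicate 3 (0.0554). With an offset of 0 Dapk3 was -1.55. Phka1, a regulatory subunit of phosphorylase kinase, was -0.28 ± 0.11 (SE), with 0.016 in slide row 1 and -0.48 in slide row 2. Under 13 of 19 alternatives Phka1 missed the unadjusted threshold, as Dclk2 did under 10, Stk33 under 6 of 18 and Camk2n2 under 5.

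Proteins on which CaM kinase II acts, most of them calcium-handling, formed the last list, with 8 of 10 tested. The tested genes had a median of -0.089, and 1 was lower at an unadjusted p under 0.05. Atp2a2, the SERCA2 pump that returns calcium to the endoplasmic reticulum, gave 8.97, 9.76 and 9.08 in control and 8.14, 8.41, 8.70 and 8.20 in Wnt4βKO replicates 1 to 4. Every Wnt4βKO array lay below every control array, with a log2 fold change of -0.91 ± 0.22 (SE), a 95% interval from -1.42 to -0.39 and an adjusted limma p of 0.502. Its other probes were -0.39 ± 0.16 (SE) and -0.016 ± 0.27, and the difference between probes was not tested. The part of the lower acinar level in these values was not tested. The covariate cannot decide it, since the acinar mean did not overlap between the genotypes. With the covariate the log2 fold change of Atp2a2 was -0.68 (unadjusted limma p 0.0743).

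**Figure D3:**
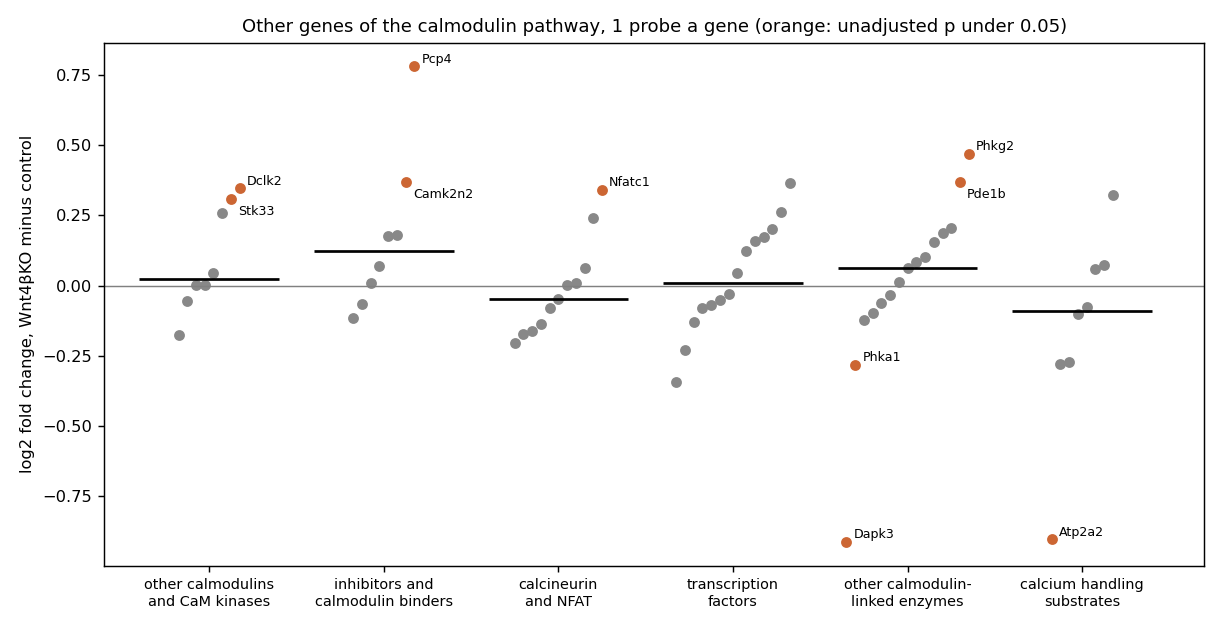
Log2 fold change (y axis, Wnt4βKO minus control) of the 64 tested pathway genes, 1 point a gene, in 6 lists ordered by value, with the median of each list as a bar. The 10 named genes in orange passed an unadjusted limma p of 0.05, 7 above and 3 below 0, and the medians of the lists lie between -0.089 and 0.12. Stk33 entered the fit only through the Wnt4βKO arrays, where it is high.

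**Figure D4:**
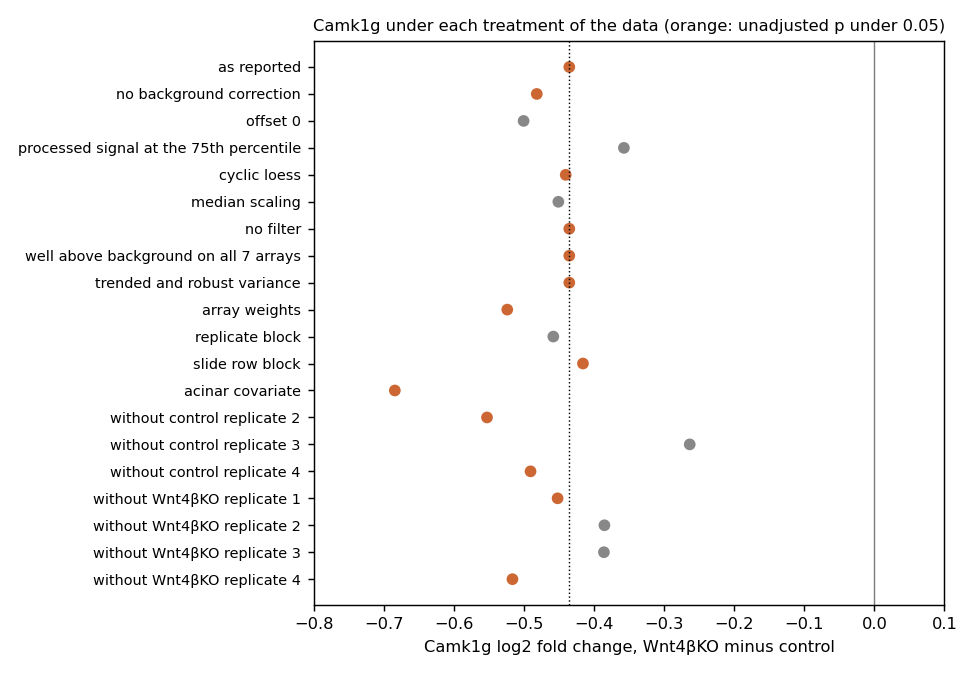
Log2 fold change of the bright Camk1g probe (x axis, Wnt4βKO minus control) as reported (dotted line, -0.44) and under 19 alternatives, in orange where the unadjusted limma p was under 0.05. The value stayed below 0 throughout, from -0.68 when the acinar mean was a covariate to -0.26 when control replicate 3 was left out, and 7 of the 19 missed the unadjusted threshold.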

How the data were processed

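Islet RNA from 3 control and 4 Wnt4βKO mice was labelled with Cy3 and hybridised to 7 arrays of 1 slide. The deposited scanner files, written by Agilent Feature Extraction 12.0.1.1 per the file headers (9.1 per the submitters' processing notes), give a median and a background intensity per spot, which the authors had not normalised. The deposited value table gives log2 values of unstated centring and direction. It was not used, because only 1 of its 7 columns correlated best with its own array.

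Median intensities were background-corrected with normexp (offset 50), outlier spots were set aside, values were log2-transformed and quantile-normalised, and spots of 1 probe were averaged with limma 3.58.1 in R 4.3.3. A log2 signal is this value, and a log2 fold change is Wnt4βKO minus control. Only probes that cleared the scanner's background test on 3 or more of the 7 arrays were tested with lmFit and eBayes, with Benjamini-Hochberg adjustment over 26151 probes. The p-values measure the spread between these samples, whose number limits the precision. Depth does not apply to intensities. Probes were named through their RefSeq accession, which matched for 32994 of 56605 probes (58.3%).

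The members and gene lists were chosen with earlier results of these data known. Named are all members, Wnt4, pathway genes with an unadjusted p under 0.05 and otherwise the 3 with the largest absolute difference of a list, 5 genes most like Camk1g, and tissue checks. In lists each gene stands by its brightest probe. The fit was tested on simulated data. Alternatives covered background correction, offset, the processed signal, normalisation, filters, variance models, array weights, slide row, replicate number, the acinar mean and leaving out each array. The values of 1 gene of the pathway lists are not reported here.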

Additional observations from a re-analysis of the deposited data

Results flagged for a closer look

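Among 48 values examined for an array standing apart from the other 3 Wnt4βKO arrays, 2 passed the critical value of Dixon's test, and chance gives about 1 in 20. For the Camk2d probe A_55_P1978830, Wnt4βKO replicate 4 lay above the others, with a gap of 0.932 of the range. For the Dclk2 probe A_55_P1970234, Wnt4βKO replicate 3 lay below the others, with a gap of 0.856 of the range.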

How the results depend on the processing

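No member probe passed an adjusted p of 0.05 under any alternative. The count of member probes at an unadjusted limma p under 0.05, 1 as reported, was 0 with an offset of 0, with the processed signal, with median scaling and with the replicate number as a block, and between 0 and 1 without 1 array at a time. The count of pathway genes, 10 as reported, where 8.94% of all genes were called, was 4 with the acinar covariate, where 2.80% were. Without 1 array at a time that count lay between 7 and 12, where between 7.14% and 10.8% of all genes were called. The log2 fold change of Wnt4 missed the unadjusted threshold at -0.50 with an offset of 0, -0.52 with the processed signal and -0.45 with median scaling, and lay between -0.66 and -0.35 without 1 array at a time, missing it without control replicate 2 or 4 and without Wnt4βKO replicate 2 or 4. The cause was not tested in any of these.

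Directions turned for members with values near 0. With the processed signal they were 0.048 for Camk2b A_55_P2109377, -0.097 for Camk2d A_55_P2860117, 0.060 for Camkk2 A_55_P2737194 and 0.013 for Calm3. Camk2b A_55_P2109377 was 0.020 with median scaling and 0.016 when slide row was blocked, and Camkk2 A_55_P2329923 was -0.0012 with cyclic loess. With the acinar covariate Camk1d was 0.086, Camk2d A_52_P188261 -0.058, Camk2g 0.058, Calm3 0.27 and Crtc1 -0.049. Without 1 array at a time the log2 fold change ran from -0.054 to 0.072 for Camk2b A_55_P2109377, from -0.0074 to 0.042 for Camk2d A_55_P2860117, from -0.21 to 0.026 for Camk2g A_55_P2020341, from -0.10 to 0.16 for Camkk2 A_55_P2329923, from -0.056 to 0.052 for Camkk2 A_55_P2737194 and from -0.29 to 0.03 for Calm3 A_66_P122644.

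With the replicate number as a block, Camk1g was -0.46 (unadjusted limma p 0.0634), Camk2b A_55_P2109377 0.0054 and Calm3 0.030. The numbers were not taken to pair the arrays, since the deviations of same-numbered arrays correlated at -0.13, 0.23 and -0.0080 and 1 of 3 control arrays correlated best with its own number.

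Of the 18 member probes, 6 were too near background to be tested.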
